A study of Mus with 18 samples.

Results

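The genes described are the IL-6 family cytokines and the STAT3 axis in lens epithelial cells (LECs), 10 of the 55416 gene IDs counted. They were chosen by ID as 5 ligands (Il6, Lif, Il11, Osm and Clcf1), 3 receptor chains (Osmr, Lifr and Il6st), the transcription factor Stat3 and the feedback gene Socs3. All 10 IDs were found in the count tables of all 18 libraries. The rule that lists them uses no measured value, but the set was chosen with earlier results of these data known.

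Lens fiber cells were removed by surgery in living mice, and the LECs left on the capsule were followed as a model of cataract surgery, whose times are given as hours post cataract surgery (PCS). RNA of lens capsules with their attached cells was sequenced at 0 h and 6 h PCS in wild type (WT), Egr1KO and FosBcKO mice, with 3 libraries in each of the 6 groups. Per the labels a mouse was operated on 1 eye and 6 h later on the other, just before collection, so its 0 h capsule came from a mouse already injured in the opposite eye. Each library pooled capsules of 5 mice of both sexes, aged between 3 and 5 months, and the labels give C57BL/6 as the strain of every group. Egr1KO mice carried a germline Egr1 deletion from a stock of mixed strain. FosBcKO mice carried a Fosb allele with 2 exons between lox P sites and the MLR10 cre transgene, which an alpha-A crystallin promoter drives in the lens. The WT group carried neither allele, so the cre transgene and the loss of Fosb cannot be told apart in the FosBcKO comparisons.

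Cytokines of the IL-6 family signal through receptor complexes that share the chain gp130, the product of Il6st. IL-6 uses the private receptor chain Il6ra, LIF uses Lifr and oncostatin M uses Osmr, each in a complex with gp130. Janus kinases on the receptor tails phosphorylate STAT3, which moves to the nucleus and activates genes that include Socs3. The SOCS3 protein binds gp130 and its kinases and shuts the signal down, which makes Socs3 the classic negative feedback of the pathway. RNA levels show neither phosphorylation nor secreted protein.

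Gene counts summed to 9609295 to 13871592 read pairs a library, with a median of 10549904. Levels below are counts per 1000000 (CPM) of a library's gene counts, and they compare a gene between libraries but not one gene with another, since no gene lengths were used. On the first principal component of log2 CPM, which separated the times, scores ran from -90.3 to -39.4 at 0 h and from -4.70 to 115.6 at 6 h. Library 1 of Egr1KO at 6 h, at -4.70, and the FosBcKO 6 h library 3, at 23.6, lay nearest to the 0 h libraries. For some genes of the axis, but not for all, the results are given with and without them. Read pairs of Egr1 were present in every Egr1KO library and read pairs of Fosb in every FosBcKO library, with log2 differences from WT at 6 h of 1.20 (FDR 0.132) and 0.73 (FDR 0.22) by edgeR's exact test. A count over a whole gene does not check alleles that keep part of the transcript, so in these libraries the genotypes rest on the labels. The study itself reports that Egr1 protein was absent from Egr1KO mice by immunofluorescence. For FosBcKO it reports the deletion by PCR of lens DNA and the loss of FosB protein by immunofluorescence at 6 h PCS. The lens epithelial markers Pax6 and Foxe3 had counts in every library, and their summed level was 703 to 814 CPM in WT at 0 h and 374 to 506 CPM in WT at 6 h. Of 4 endothelial markers 3 were matched to an ID (Pecam1, Cdh5 and Kdr), through tables sorted by p-value that favour genes that passed. As higher at 6 h, 3 passed the test in WT, 3 in Egr1KO and 2 in FosBcKO. Of all genes tested, 13.5%, 9.28% and 11.2% did so. These markers summed to 3.02 to 14.01 CPM over all 0 h libraries and to 10.3 to 117.4 CPM at 6 h. Their part in the results at 6 h was not tested, and in bulk RNA fewer cells of a type cannot be told apart from less RNA per cell.

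The response of the axis to lens injury was read within each genotype, as 6 h PCS against 0 h. In WT, 6 of the 8 genes of the axis that could be tested rose: the ligands Il6, Lif and Clcf1, the receptor Osmr, Stat3 and Socs3. A gene counted as changed at an FDR (Benjamini-Hochberg over all genes tested) of at most 0.05 and more than 2-fold, by edgeR's quasi-likelihood F-test. Over all 15440 genes tested in WT, 17.1% changed and 13.5% rose. The receptors Lifr and Il6st did not pass the test, and Il11 and Osm had too few counts to be tested. The same 6 genes rose in Egr1KO, where 12% of all genes tested changed and 9.28% rose. In FosBcKO, 4 of the 8 rose (Il6, Osmr, Stat3 and Socs3), against 13.1% of all genes changed and 11.2% higher. Il6 was too low at 0 h to be compared between genotypes, so it passed the filter of these tests through its 6 h libraries. Given its 0 h level, it could be tested only because it was higher at 6 h. The counts above and the medians below include it. The median log2 fold change of the 8 tested genes was 1.54 in WT, 2.59 in Egr1KO and 2.27 in FosBcKO, beside -0.02, 0.00 and 0.05 over all genes. Every 6 h library lay above every 0 h library for 7 of the 8 tested genes in WT, 4 in Egr1KO and 5 in FosBcKO, and for 28.2%, 18.1% and 22.8% of all genes tested. In FosBcKO, Lif and Clcf1 did pass by the exact test and by DESeq2.

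Il6 (ENSMUSG00000025746) encodes interleukin-6, the founding cytokine of the family. It was nearly absent at 0 h, with 7, 6 and 2 read pairs in the WT libraries, 0, 0 and 3 in Egr1KO and 0, 2 and 0 in FosBcKO. At 6 h the WT libraries held 4.43, 3.83 and 6.39 CPM, the Egr1KO libraries 8.31, 5.98 and 9.13 CPM and the FosBcKO libraries 13.3, 44.4 and 12.2 CPM. The 6 h libraries lay above the 0 h libraries in all 3 genotypes without overlap. In WT the log2 fold change was 3.23 (SE 0.56, FDR 0.00548). In the knockouts the 0 h groups held only 3 and 2 read pairs in all, so the change is given as a ratio of summed counts, each divided by the summed library size, with an exact binomial 95% interval that covers counting error only. These ratios were 82.1 (27.8 to 401) in Egr1KO and 363 (100 to 3000) in FosBcKO, beside 10.4 (6.14 to 19.1) in WT. Il6 passed the test in both knockouts, with an FDR of 0.00489 in Egr1KO and 0.00457 in FosBcKO.

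Lif (ENSMUSG00000034394) encodes leukemia inhibitory factor. WT libraries held 10.1, 11.7 and 13.9 CPM at 0 h and 88.8, 105.7 and 147.8 CPM at 6 h. The groups did not overlap, and the rise of 3.14 on the log2 scale (SE 0.21, FDR 0.000628) ranked 4 by p-value among the 15440 genes tested. The Egr1KO libraries held 13.5, 3.26 and 2.50 CPM at 0 h and 11.1, 75.6 and 60.6 CPM at 6 h. Library 1 at 6 h lay below library 1 at 0 h, so the groups overlapped, while the other 6 h libraries lay above every 0 h library. The log2 fold change in Egr1KO was 2.95 (SE 0.82, FDR 0.0402), and without library 1 at 6 h it was 3.38 (FDR 0.0207). The call was lost without library 2 or 3 of either time. The FosBcKO libraries went from 12.4, 9.02 and 13.5 CPM to 112.0, 288.2 and 15.9 CPM, with library 3 only just above the 0 h range. The log2 fold change of 3.62 (SE 1.17) did not pass the test (FDR 0.0947), and without library 3 at 6 h it was 4.08 (FDR 0.00387). Without library 2 at 6 h, the highest, it was 2.33 (FDR 0.0722), and with a replicate block it was 2.88 (FDR 0.315).

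Clcf1 (ENSMUSG00000040663) encodes cardiotrophin-like cytokine factor 1, a ligand of the CNTF receptor complex. In WT the mean level was 12.3 ± 1.30 CPM before and 41.3 ± 13.8 CPM after 6 h (SD, n = 3 each), and the rise was 1.66 on the log2 scale (SE 0.29, FDR 0.00589). In Egr1KO it rose from 4.57, 6.91 and 5.31 CPM to 6.83, 40.9 and 44.3 CPM, by 2.50 on the log2 scale (SE 0.61, FDR 0.0278). Library 1 again stood apart, with its 6 h value inside the 0 h range, and without it the log2 fold change was 2.94 (FDR 3.92e-05). The call was lost without library 2 or 3 at 6 h and without any single library at 0 h, with an FDR of up to 0.105. The FosBcKO libraries held 4.73, 10.8 and 2.81 CPM at 0 h and 22.3, 44.8 and 8.08 CPM at 6 h. There the groups overlapped through library 3, and the log2 fold change of 2.09 (SE 0.74) did not pass the test (FDR 0.0879). It was 2.45 (FDR 0.0204) without that library and 1.24 (FDR 0.173) without library 2 at 6 h.

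Osm (ENSMUSG00000058755) encodes oncostatin M, and its gene lies next to Lif in the RefSeq table used for gene neighbours. No read pair of Osm was counted in WT or Egr1KO at 0 h. At 6 h the WT libraries held 2, 12 and 6 read pairs and the Egr1KO libraries 1, 7 and 3. Against a floor of 3 counts over the 0 h group, Osm was at least 6.87-fold higher at 6 h in WT and at least 3.42-fold higher in Egr1KO. These floors leave out the counting error of the 6 h reads, and with it the exact binomial lower limits of the Osm ratio were 5.09 and 2.34. In FosBcKO, 4 pairs of a single library at 0 h stood beside 13 pairs at 6 h, a ratio of 2.91 (0.898 to 12.2). Il11 (ENSMUSG00000004371), which encodes interleukin-11, held between 1 and 14 read pairs in every library. Its summed counts went from 10 to 15 in WT, a ratio of 1.55 (0.65 to 3.85). They went from 6 to 26 in Egr1KO, a ratio of 4.04 (1.63 to 12), and from 7 to 23 in FosBcKO, a ratio of 2.94 (1.22 to 8.11). The intervals cover counting error only, and the Il11 groups overlapped in WT and in Egr1KO.

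**Figure D1:**
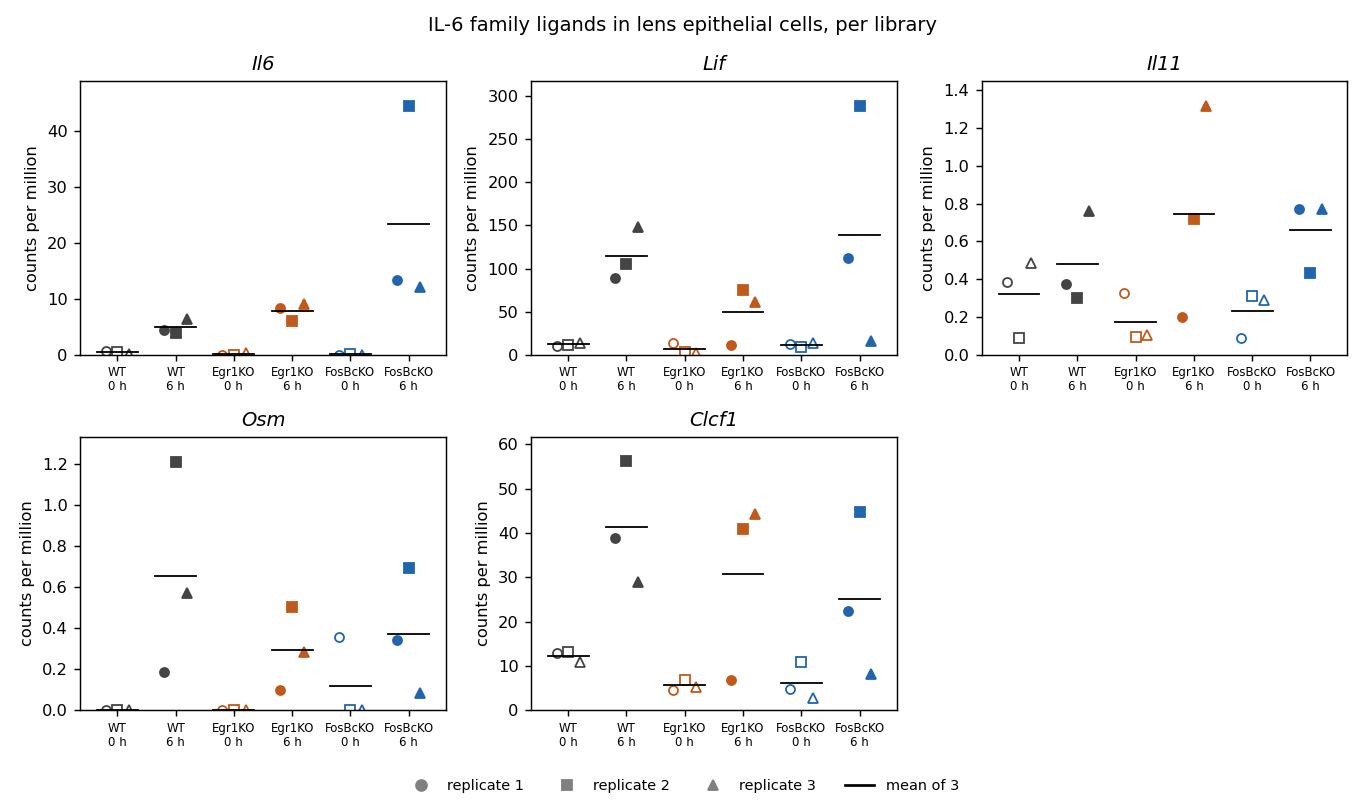
Level of each ligand in the 18 libraries, in CPM, with a vertical scale of its own for each gene starting at 0. Open symbols are 0 h and filled symbols 6 h PCS, symbol shapes mark the replicate number and bars the mean of 3 libraries. Il6 in FosBcKO at 6 h lies between 12.2 and 44.4 CPM, above every WT and Egr1KO library, while Lif and Clcf1 in the Egr1KO 6 h library 1 and the FosBcKO 6 h library 3 lie at or near their 0 h levels.

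Osmr (ENSMUSG00000022146), the oncostatin M receptor chain, was the receptor of the 3 that rose. WT libraries held 29.6, 31.4 and 27.9 CPM at 0 h and 74.6, 120.4 and 59.7 CPM at 6 h, an increase of 1.43 on the log2 scale (SE 0.28, FDR 0.0098). In Egr1KO it rose from 12.4, 18.8 and 12.7 CPM to 55.4, 132.4 and 86.0 CPM, by 2.68 (SE 0.30, FDR 0.00222). In FosBcKO it rose from 16.3, 24.1 and 13.96 CPM to 81.8, 152.4 and 52.0 CPM, by 2.44 (SE 0.45, FDR 0.0144). The groups did not overlap in any genotype. The FosBcKO call was lost without library 3 at 0 h or library 1 at 6 h, with an FDR of up to 0.0579.

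Lifr (ENSMUSG00000054263), the LIF receptor chain, lies next to Osmr in the RefSeq table. In WT its mean level was 74.7 ± 1.74 CPM at 0 h and 100.7 ± 3.04 CPM at 6 h (SD over 3 libraries). The WT groups did not overlap, and the log2 fold change of 0.32 (SE 0.13, FDR 0.0962) did not pass the test. The log2 fold changes were 0.38 (SE 0.16, FDR 0.126) in Egr1KO and 0.10 (SE 0.13, FDR 0.601) in FosBcKO. Il6st (ENSMUSG00000021756), which encodes the shared chain gp130, had a mean WT level of 310.0 ± 25.6 CPM at 0 h and 350.0 ± 84.0 CPM at 6 h (SD over 3 libraries). Its log2 fold changes were 0.08 (SE 0.23, FDR 0.816) in WT, 0.39 (SE 0.17, FDR 0.138) in Egr1KO and -0.02 (SE 0.15, FDR 0.948) in FosBcKO. Its 0 h and 6 h libraries overlapped in all 3 genotypes, in Egr1KO through library 1 at 6 h. Without that library the Il6st change in Egr1KO was 0.53 on the log2 scale with an FDR of 0.00776, under the 2-fold limit.

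Stat3 (ENSMUSG00000004040), the transcription factor that the receptors activate, rose in all 3 genotypes. It went from 125.9, 125.7 and 136.5 CPM to 311.4, 380.8 and 328.9 CPM in WT, an increase of 1.29 on the log2 scale (SE 0.17, FDR 0.00221). In Egr1KO it went from 122.4, 135.7 and 114.2 CPM to 218.0, 381.6 and 355.8 CPM, an increase of 1.41 (SE 0.20, FDR 0.00435). In FosBcKO it went from 120.3, 123.2 and 108.8 CPM to 278.4, 319.6 and 200.2 CPM, an increase of 1.19 (SE 0.19, FDR 0.00458). No 6 h library overlapped the 0 h libraries of its genotype. Without library 2 at 6 h the FosBcKO change was 0.93, under the 2-fold limit.

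Socs3 (ENSMUSG00000053113), the feedback inhibitor, rose in all 3 genotypes, with levels that spread widely among the libraries at 6 h. WT libraries held 64.0, 68.1 and 103.2 CPM at 0 h and 658.7, 207.3 and 320.1 CPM at 6 h. The log2 fold change in WT was 2.23 (SE 0.43, FDR 0.00942), and it did not pass without library 3 at 6 h (FDR 0.0671). Egr1KO libraries went from 29.4, 23.3 and 25.7 CPM to 1817, 133.2 and 534.2 CPM. All of them lay above the 0 h libraries, and the log2 fold change was 5.08 (SE 0.91, FDR 0.011). Without library 1 at 6 h it was 3.72 (FDR 0.0129), and without library 1 or 3 at 0 h it missed the threshold (FDR 0.0535 and 0.0551). FosBcKO libraries went from 101.4, 31.7 and 63.2 CPM to 1045, 910.9 and 1487 CPM, a log2 fold change of 4.12 (SE 0.44, FDR 0.00254), which was 3.83 (FDR 0.00207) without library 3 at 6 h.

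**Figure D2:**
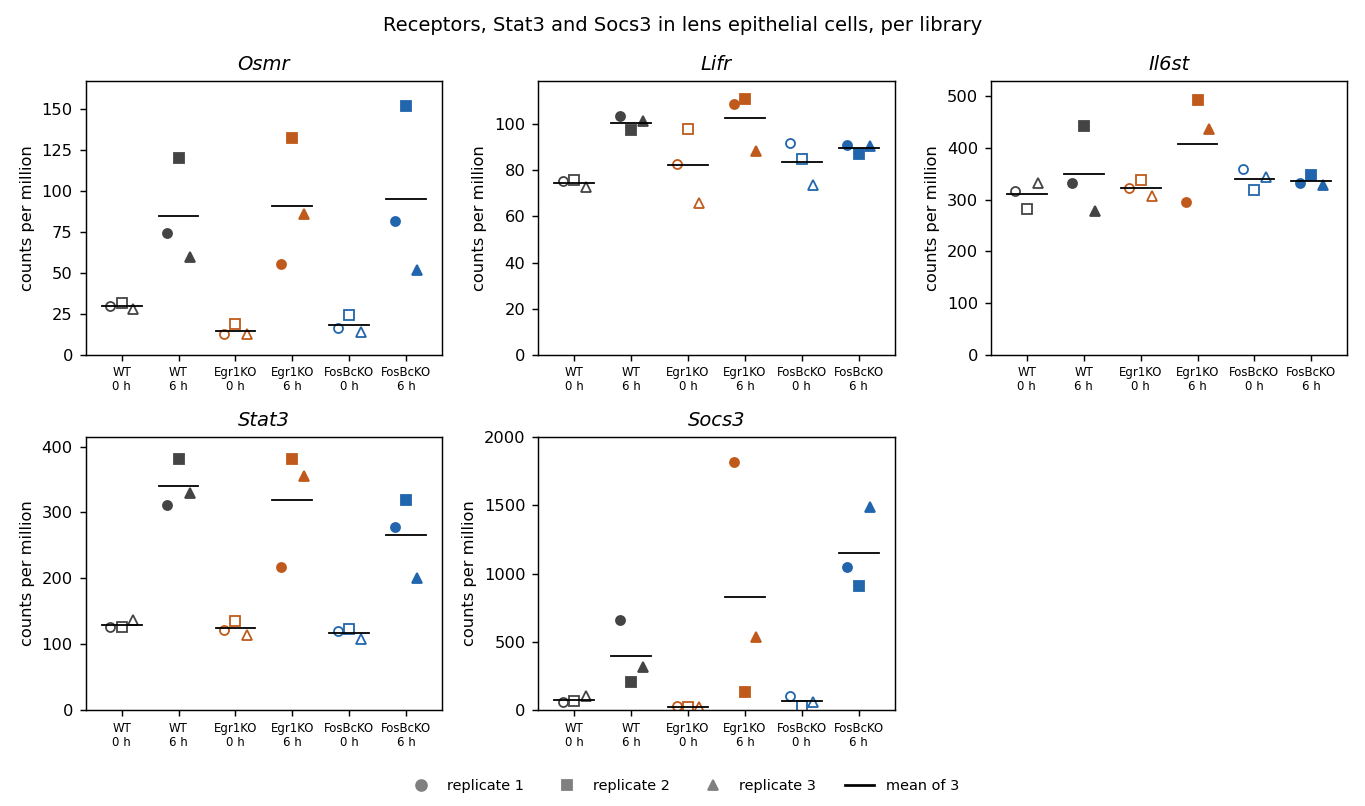
Level of the 3 receptor chains, Stat3 and Socs3 in the 18 libraries, in CPM, with axes and symbols as in the plot of the ligands. Osmr, Stat3 and Socs3 at 6 h lie above the 0 h libraries of the same genotype in all 3 genotypes, whereas the Il6st libraries of the 2 times overlap in each. The Socs3 libraries of Egr1KO at 6 h range from 133.2 to 1817 CPM.

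**Figure D3:**
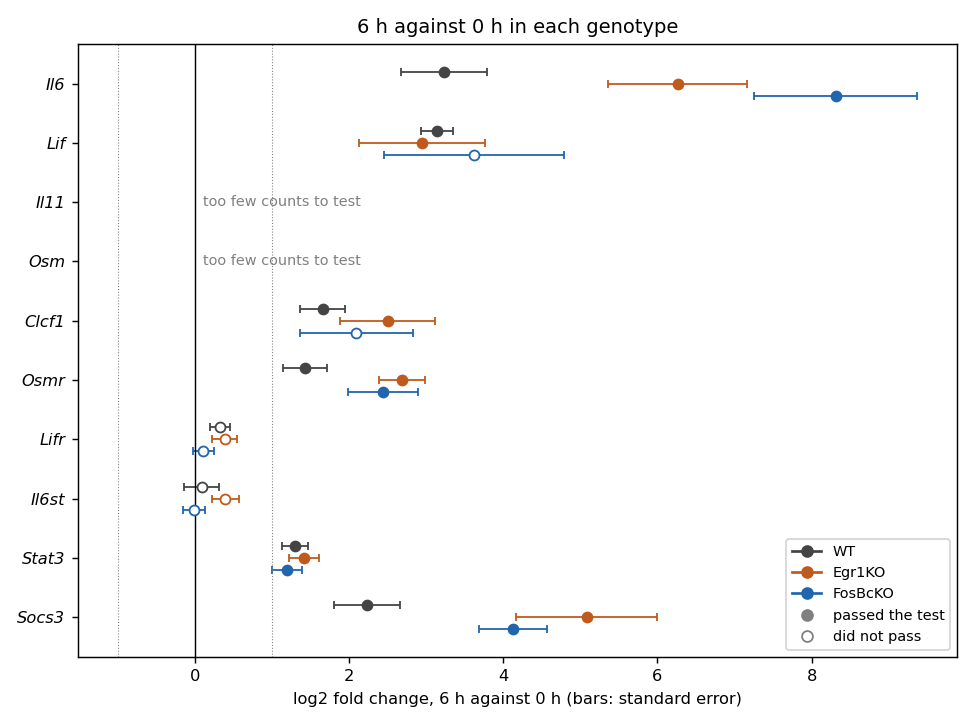
Log2 fold change of 6 h against 0 h PCS for the 10 genes in WT, Egr1KO and FosBcKO, with bars of 1 standard error. Filled symbols passed edgeR's quasi-likelihood F-test at an FDR of at most 0.05 and more than 2-fold, a limit drawn as dotted lines, and Il11 and Osm were too low to test. Lifr and Il6st stay between -0.02 and 0.39 while Stat3 lies between 1.19 and 1.41 in the 3 genotypes, and the Il6 estimates of the knockouts rest on 3 and 2 read pairs at 0 h.

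Other genes of the pathway were taken from lists of 56 genes, of which 33 could be matched to an ID. The names came from tables that the study sorted by p-value, so the matched genes are a selected part of each list. Of the 5 further receptor chains 3 were matched, and Il6ra, the chain that binds IL-6, rose in all 3 genotypes. Its WT libraries went from 2.30, 2.49 and 2.34 CPM to 7.92, 15.1 and 9.06 CPM, a log2 fold change of 2.07 (SE 0.37, FDR 0.00623). The log2 fold change of Il6ra was 3.47 (FDR 0.0164) in Egr1KO and 2.72 (FDR 0.0107) in FosBcKO. Cntfr, a chain that Clcf1 uses, had log2 fold changes of -0.41, -0.06 and -0.54 in the 3 genotypes and did not pass. Of the 3 matched Janus kinases, Jak1 and Jak2 had log2 fold changes of 0.78 and 0.77 in WT, each with an FDR under the limit (0.0154 and 0.0272) and a change of less than 2-fold. Only Jak3 in FosBcKO, at 1.35 (FDR 0.0317), passed among the kinases.

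All 3 matched members of the SOCS and CISH family other than Socs3 rose in every genotype. Socs2 had log2 fold changes of 3.88, 4.23 and 3.91 in WT, Egr1KO and FosBcKO, Socs1 of 2.87, 3.58 and 2.70, and Cish of 2.40, 3.24 and 5.04. Of the other STAT genes 3 of 6 were matched. Stat2, a factor of the interferon pathway, and Stat5a, which lies next to Stat3 in the RefSeq table, rose in WT by 1.72 and 1.78 on the log2 scale. Stat5a also rose in both knockouts and Stat2 in Egr1KO. Of the 4 matched phosphatases among the other brakes, Ptpn2, a phosphatase of JAK and STAT proteins, rose in all 3 genotypes by 1.21, 1.32 and 1.22, and Ptprt rose in WT and FosBcKO by 1.88 and 1.66. Of 18 genes known to be activated by STAT3, 16 were matched and tested. As higher, 11 passed in WT, 10 in Egr1KO and 12 in FosBcKO, beside 13.5%, 9.28% and 11.2% of all genes tested. None passed as lower. Hif1a was lower by -0.49 in WT (FDR 0.109), -0.75 in Egr1KO (FDR 0.0254) and -0.76 in FosBcKO (FDR 0.0277), under the 2-fold limit. The largest changes in WT were those of Fos (3.99), Junb (3.25), Cebpd (2.77) and the kinase gene Pim1 (2.39) on the log2 scale. The median over the 16 was 1.80 in WT, 2.27 in Egr1KO and 2.38 in FosBcKO. Many of these genes also respond to other signals, the matching favours genes that passed, and this count shows nothing particular to STAT3.

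Each knockout was then compared with WT at the same time by edgeR's exact test. Both comparisons at a time use the same WT libraries, so they are not independent of each other. At 0 h, 2 of the 7 genes tested were lower in Egr1KO than in WT, Socs3 and Osmr, against 0.41% of all 14373 genes tested that changed and 0.32% that were lower. Socs3, Osmr and Clcf1 were lower than WT without overlap, as were 9.32% of all genes. The mean Socs3 level was 26.1 ± 3.05 CPM in Egr1KO and 78.5 ± 21.6 CPM in WT (SD over 3 libraries), with a log2 difference of -1.56 (SE 0.18, FDR 1.97e-09). The groups did not overlap, with 29.4 CPM as the highest Egr1KO library and 64.0 CPM as the lowest WT library. This call held in 15 of 16 alternatives and was lost in 1 quasi-likelihood fit of all 18 libraries (FDR 0.942). Osmr had a log2 difference of -1.001 (SE 0.18, FDR 0.0106), also without overlap, and its call was lost in 8 of 16 alternatives, among them each fit without library 1 or 3 of Egr1KO or library 1 or 2 of WT. Clcf1 was lower in all 3 Egr1KO libraries with a log2 difference of -1.12 (SE 0.26) and did not pass (FDR 0.0958), but it passed by DESeq2 (FDR 0.0332) and without robust dispersions (FDR 0.0466). Krt12, a corneal epithelial marker, was also lower in Egr1KO at 0 h, by -3.97 (FDR 2.41e-06), with summed levels of Krt12 and Krt5 of 1.15 to 5.30 CPM beside 4.62 to 28.9 CPM in WT. Its part in the Socs3 and Osmr differences was not tested.

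For Lif, the Egr1KO library 1 at 0 h held 13.5 CPM, within the WT range of 10.1 to 13.9 CPM, while libraries 2 and 3 held 3.26 and 2.50 CPM. The log2 difference of -0.86 (SE 0.65) did not pass (FDR 0.956), and without that library it was -2.01 (FDR 0.00306). In FosBcKO at 0 h, none of the 7 genes tested passed the exact test, the quasi-likelihood F-test or DESeq2, and 0.295% of all 14556 genes changed. At an unadjusted p under 0.05 there were 818 genes (5.62%), with Clcf1 and Osmr among them. Clcf1, Osmr and Stat3 were lower in FosBcKO without overlap, as were 6.57% of all genes. Osmr was lower in all 3 FosBcKO libraries than in WT, by -0.72 (SE 0.20, FDR 0.316), and so was Clcf1, by -1.03 (SE 0.41, FDR 0.732). Clcf1 passed without library 2 of FosBcKO (FDR 0.0117). Thus Osmr and Clcf1 lay below the WT range in both knockouts at 0 h, and of these values only Osmr in Egr1KO passed the exact test. For Clcf1 the highest FosBcKO library, at 10.783 CPM, was only just below the lowest WT library, at 10.801 CPM. Krt12 was also lower in FosBcKO at 0 h, by -3.31 (FDR 0.000576), and Krt12 and Krt5 summed to 0.518 to 3.39 CPM there, below the WT libraries, and the part of corneal cells in these values was not tested.

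At 6 h PCS, 2 of the 8 genes tested were higher in FosBcKO than in WT, Il6 and Socs3, against 5.41% of all 16155 genes that changed and 4.48% that were higher. Il6 was higher by 2.45 on the log2 scale (SE 0.56, FDR 0.00097), with 12.2 CPM as the lowest FosBcKO library and 6.39 CPM as the highest WT library. Library 2, at 44.4 CPM, held over 3 times the level of the other FosBcKO libraries, and without it the Il6 difference was 1.46 on the log2 scale (FDR 0.00805). Socs3 was higher by 1.66 (SE 0.43, FDR 0.0047), with 910.9 CPM as the lowest FosBcKO library and 658.7 CPM as the highest WT library. Without library 3 the Socs3 difference was 1.43 (FDR 0.0505) and did not pass, and that of Il6 was 2.77 (FDR 4.02e-05). By the quasi-likelihood F-test neither gene passed. Il6 and Socs3 were the genes of the axis higher without overlap and Lifr the one lower, beside 9.99% of all genes higher and 11.8% lower without overlap.

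Markers of leukocytes also differed between FosBcKO and WT at 6 h. Of 10 leukocyte markers 7 were matched to an ID. The matching used tables sorted by p-value, this contrast among them, so the count favours genes that passed. Of the 7, 6 were higher in FosBcKO than in WT at 6 h, beside 4.48% of all genes tested. These were Ptprc, Itgam, Adgre1, Csf1r, Lyz2 and Cd14, with Cd68 as the exception. The summed level of the 7 at 6 h was 55.7 to 62.4 CPM in FosBcKO, 35.2 to 48.5 CPM in Egr1KO and 17.7 to 31.2 CPM in WT. At 0 h it was 22.5 to 25.6, 18.003 to 24.7 and 1.51 to 29.7 CPM. No marker of the 7 was at 0 in any FosBcKO library, while 1 was at 0 in 2 of the WT libraries at 6 h. Leukocytes are a known source of Il6. Markers of other cells were higher in the same contrast, 1 of 4 fibroblast markers (Col1a2, by 3.46 on the log2 scale, FDR 7.73e-24) and 1 of 4 pigment cell markers (Tyrp1, by 1.67, FDR 0.00431). The fibroblast markers summed to 208.6 to 375.5 CPM in FosBcKO and 53.0 to 141.2 CPM in WT at 6 h, and the pigment cell markers to 163.7 to 354.5 and 35.5 to 173.3 CPM. The largest part of the fibroblast sum was Pdgfra, with means of 140.5 CPM in FosBcKO and 82.2 CPM in WT, and Pdgfra did not pass. The part of all these cells in the Il6 and Socs3 results was not tested.

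Of the 16 genes activated by STAT3, 6 were higher in FosBcKO than in WT at 6 h, beside 4.48% of all genes tested. The 16 were matched through tables sorted by p-value, this contrast among them, so the count favours genes that passed and shows nothing particular to STAT3. These were Lcn2 (2.46 on the log2 scale, with overlap between groups), Icam1 (2.00), Serpina3n (1.90), Cebpd (1.33), Junb (1.18) and Cebpb (1.09). Lcn2 and Serpina3n encode acute phase proteins, and Cebpb and Cebpd encode transcription factors of the acute phase response. The receptor chain Il31ra, which lies next to Il6st in the RefSeq table, was higher by 4.12 (FDR 5.44e-08). Its libraries held 49, 31 and 52 read pairs in FosBcKO at 6 h and 3, 1 and 3 in WT. At 0 h they held 47, 18 and 22 in FosBcKO and 12, 4 and 11 in WT, a log2 difference of 1.67 that did not pass (FDR 0.659).

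In Egr1KO at 6 h, none of the 8 genes tested differed from WT by the exact test, the quasi-likelihood F-test or DESeq2. Of all 15618 genes 0.736% changed by the exact test, and 1511 genes (9.67%) had an unadjusted p under 0.05, with Il6 as the only one of the axis. Il6 was higher by 0.91 (SE 0.36, FDR 0.424) and its groups overlapped. Lif was lower in all 3 Egr1KO libraries, at up to 75.6 CPM, than in any WT library, at 88.8 CPM or more, with a log2 difference of -1.02 (SE 0.55, FDR 0.58). It was the 1 gene of the axis lower without overlap, as were 13.8% of all genes. Without Egr1KO library 1 the Lif difference was -0.54 (FDR 0.614). Socs3 had a difference of 1.33 (SE 0.84, FDR 0.649), which rested on library 1 and was -0.01 (FDR 1) without it. Without library 2, which had the lowest Socs3 level, the same difference passed (FDR 0.0442). Stat3, Osmr, Lifr and Il6st differed by 0.10, 0.28, 0.24 and 0.41 in Egr1KO and by -0.22, 0.31, -0.04 and 0.05 in FosBcKO at 6 h, with standard errors of 0.16 to 0.45, and none passed.

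**Figure D4:**
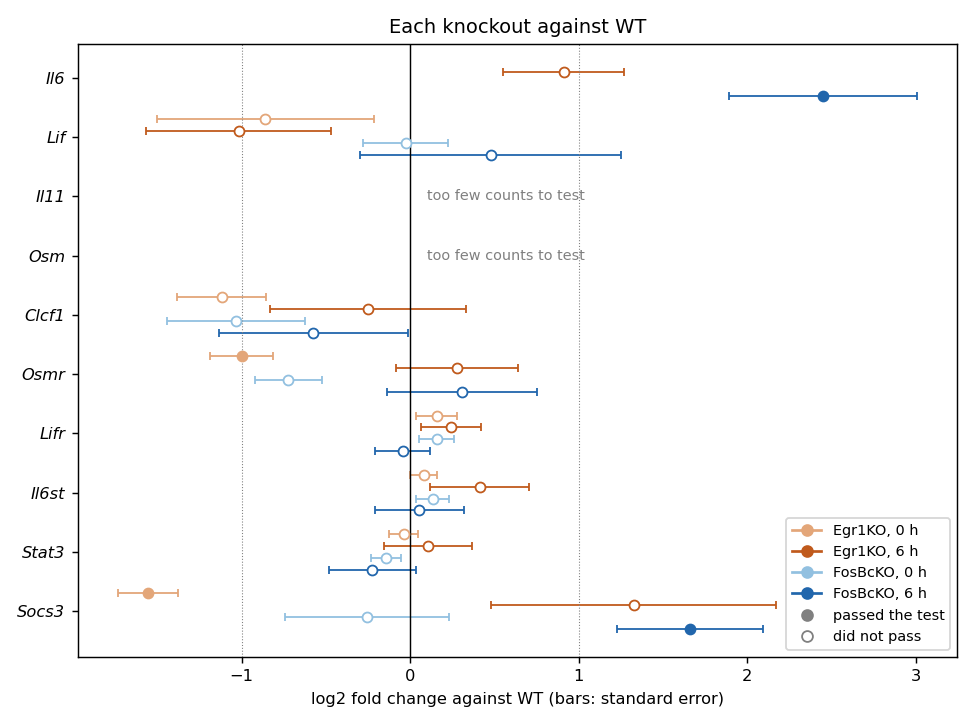
Log2 difference of each knockout from WT at 0 h (pale) and at 6 h PCS (dark) for the 10 genes, with bars of 1 standard error and dotted lines at 2-fold. Filled symbols passed edgeR's exact test, which were Socs3 (-1.56) and Osmr (-1.001) in Egr1KO at 0 h and Il6 (2.45) and Socs3 (1.66) in FosBcKO at 6 h. Il6 at 0 h, Il11 and Osm were too low to test.

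The difference between the injury response of a knockout and that of WT was fitted as an interaction of genotype and time on the 18 libraries together, with edgeR's quasi-likelihood F-test. No gene of the axis passed in either knockout, and 0% of all 17469 genes did. At an unadjusted p under 0.05 there were 1141 genes (6.53%) for Egr1KO and 1171 (6.7%) for FosBcKO. In Egr1KO these held Socs3, with a log2 fold change 2.82 larger than in WT (SE 1.02, FDR 0.719), Il6 with 3.02 (SE 1.23, FDR 0.738) and Osmr with 1.24 (SE 0.56, FDR 0.74). Without Egr1KO library 1 at 6 h the Socs3 value fell to 1.51 (FDR 0.721) and its unadjusted p was above 0.05. In FosBcKO they held Il6 with 5.03 (SE 1.28, FDR 0.415). The larger fitted responses of Il6, Socs3 and Osmr in the knockouts thus did not pass as differences from WT over all genes. By DESeq2 Il6 in FosBcKO passed.

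At 6 h Socs3 did not spread with Clcf1, Osmr and Stat3 among the libraries of a group. Clcf1, Osmr and Stat3 were each highest in library 2 and lowest in library 3 in WT and in FosBcKO. In Egr1KO each was lowest in library 1. In each genotype the library with the highest Socs3 level had the lowest Lif level: library 1 in WT, library 1 in Egr1KO and library 3 in FosBcKO. In Egr1KO library 1 Socs3 lay 1.90 above its group mean of log2 CPM, while Lif lay at -1.68, Clcf1 at -1.69, Osmr at -0.58 and Stat3 at -0.45. In FosBcKO library 3 Socs3 lay at 0.39, Lif at -2.34, Clcf1 at -1.31, Osmr at -0.75 and Stat3 at -0.40. These are the 2 libraries that lay nearest to the 0 h libraries. The summed level of Pax6 and Foxe3 was also the highest of its group in each of the 3 libraries. It was 506 CPM in WT, 767 CPM in Egr1KO and 805 CPM in FosBcKO. So was that of the fibroblast markers, at 141.2, 270.7 and 375.5 CPM. Corneal markers were highest in the 2 knockout libraries, at 6.04 and 299.0 CPM, but not in WT library 1. Pigment cell markers were highest in FosBcKO library 3 and lowest in library 1 of WT and of Egr1KO. The part of all these markers in the spread was not tested. The FosBcKO library 2 lay at the other end, with Il6 at 1.30, Lif at 1.95 and Clcf1 at 1.25. This order was seen in the values and not tested, and with 3 libraries a group it is a description of these libraries.

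**Figure D5:**
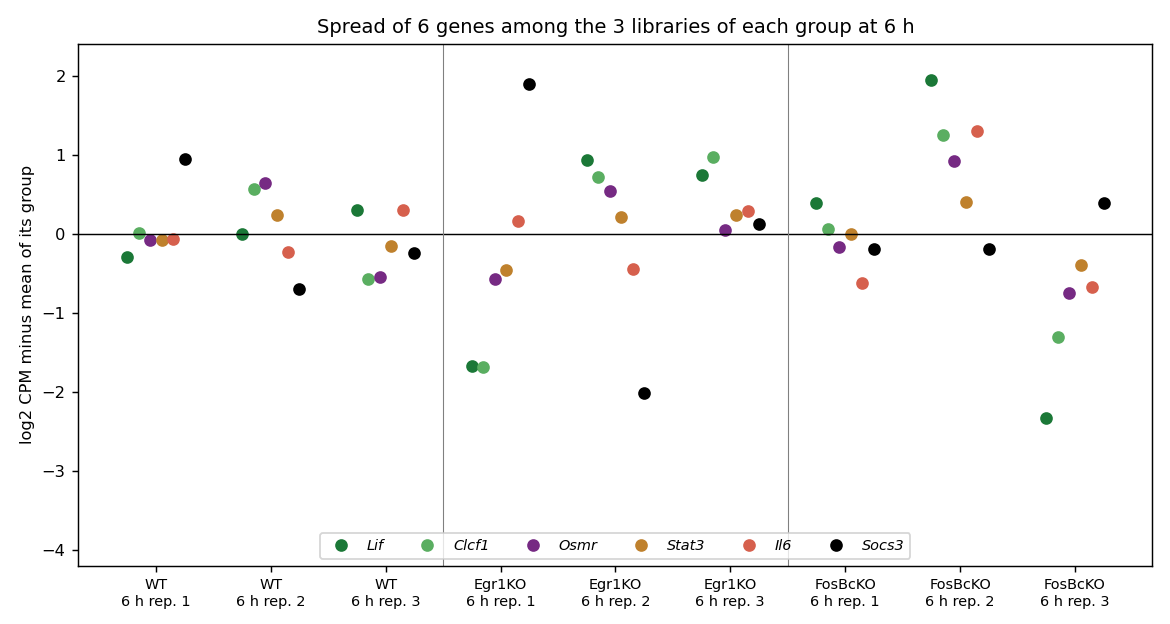
Deviation of 6 genes from their group mean of log2 CPM (scaled by the trimmed mean of M-values, TMM) in each of the 9 libraries at 6 h PCS. Socs3 (black) is the highest of the 6 genes in WT library 1, Egr1KO library 1 (1.90) and FosBcKO library 3 (0.39), where Lif (dark green) lies at -0.29, -1.68 and -2.34.

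The genes whose log2 CPM over the 18 libraries was most like that of Socs3, among 6550 genes with a name of 17469 tested, were Fam71a (Pearson r = 0.96), Nfkbiz (0.95) and Ier2 (0.94). Those most like Lif were Thbs1 (0.94), Igsf9b (0.93) and Galnt16 (0.93). In each case they ranked 1 to 3 among all genes tested, with or without a name. Nfkbiz encodes a nuclear regulator of NF-kB, Ier2 an immediate early gene product and Thbs1 the matrix protein thrombospondin-1. The 18 points share the difference between 0 h and 6 h, so the correlations are descriptions.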

How the data were processed

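RNA-seq levels of 10 genes were taken from 18 mouse LEC libraries, grouped by label into 6 groups of 3. Library preparation by the authors removed ribosomal RNA and kept strand, and both ends were read and aligned with Hisat2. The deposited counts are unnormalized read pairs by Ensembl ID from HTSeq-count in union mode. The study's methods name the GRCm38 assembly and the labels GRCm39, so no coordinates are given, and no sequence is printed. Lines that name no gene held 34.38% to 48.03% of a library's pairs and were left out. Of the 55416 IDs, 20214 had no count. Union mode drops pairs shared by overlapping genes, and in RefSeq Il6, Il11, Clcf1 and Stat3 overlap another gene, so their counts are less certain. The strand setting of the counting is not given in the sources used here.

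Genes were filtered with filterByExpr and scaled by TMM in edgeR 4.0.16 (R 4.3.3), with robust dispersions. The study's methods name the quasi-likelihood F-test for 6 h against 0 h in WT and the exact test for later analyses. The first was used here for every genotype and the interactions (all 18 libraries), the second for each knockout against WT, on 6 libraries a contrast. FDR is Benjamini-Hochberg over all genes tested, and calls also needed more than 2-fold. Standard errors come from the quasi-likelihood fit. CPM is counts per 1000000 gene counts of a library. Correlations and deviations used log2 CPM with TMM and a prior count of 2. The tests were tried on simulated counts with known changes.

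The 10 genes came with names. Other names came from 7033 pairs of ID and symbol in the study's supplementary tables, which are sorted by p-value and in part shortened, and 67 of 101 listed genes had an ID. The RefSeq gene table of assembly GRCm38.p6 held no Ensembl IDs and gave only gene neighbours. The genes and lists were chosen with earlier results of these data known. Named were all 10 genes, per pathway list up to 4 that passed with the largest change in WT and any whose role bears on a gene of the axis, the 3 genes most like Socs3 and Lif, Egr1 and Fosb, and cell markers. The lens fiber list had no ID matched. A further result of the pathway lists is not reported here. Corneal, pigment and fibroblast marker lists are described in the closing section.

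Replicates were pools of different mice. The 18 pairs of libraries of a group differed by 10.4 to 96.7 times the variance of counting alone (chi-square per degree of freedom), so no pair agreed within sampling noise. A mouse gave 1 eye to each time, but whether same-numbered pools held the same mice is not given in the sources used here. In WT the deviations of same-numbered 0 h and 6 h libraries correlated at 0.102, 0.23 and 0.25. All were over the limit of 0.1, so the WT numbers were taken to pair. The WT values given above still come from the fit without a replicate block. With the block the FDR of Lif in WT, for example, was 1.05e-05 by the quasi-likelihood F-test. The limit was not met in the other contrasts. The replicate block changed no call of the 10 genes in WT. Alternatives were the other edgeR test, DESeq2 1.42.0, RLE size factors, TMM without the 10 most abundant genes, 10 counts in 3 libraries as the filter or none, one fit of all libraries, no robust option, no fold minimum, a replicate block and leaving out each library.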

Additional observations from a re-analysis of the deposited data

How the results depend on the processing

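Over all alternatives, 1280 values of the tested genes were computed. Of these 1224 kept their side of the threshold, 36 lost a call, 20 gained one and none of the called changes turned direction. In 27 cases an uncalled value changed sign. Of the 8 genes tested in WT at 6 h against 0 h, the 6 calls held in every alternative except one fit of all libraries (5, without Clcf1, FDR 0.0759) and the fit without WT 6 h library 3 (5, without Socs3). With no filter Socs3 also lost its call in WT, and Osm, otherwise untested, passed. In Egr1KO, 6 h against 0 h gave 3 calls instead of 6 with no filter, and 3 to 6 when a library was left out. FosBcKO gave 3 to 6 in place of 4. For Egr1KO against WT at 0 h, the 2 calls became 1 by the quasi-likelihood F-test, with no filter or with a replicate block, 0 in one fit of all libraries, 3 by DESeq2 and without the robust option (with Clcf1), and 1 to 2 when a library was left out. For Egr1KO against WT at 6 h and FosBcKO against WT at 0 h, the 0 calls became 0 to 1 when a library was left out. For FosBcKO against WT at 6 h, the 2 calls became 0 by the quasi-likelihood F-test, 1 in one fit of all libraries and 1 to 2 when a library was left out. The interaction calls became 2 with no filter in each knockout (Osmr and Socs3 in Egr1KO, Il6 and Socs3 in FosBcKO), and 1 (Il6) by DESeq2 in FosBcKO. The cause of these shifts was not tested.

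In the contrasts other than WT the same-numbered samples were not taken as pairs, since not every pair correlated above 0.1 (0.16, 0.08 and 0.18 in FosBcKO at 6 h against 0 h), though every FosBcKO library correlated best with its own number. With the replicate block there, Lif lost its call in Egr1KO at 6 h against 0 h (FDR 0.098), and Clcf1 gained one in FosBcKO (FDR 3.64e-05). Against WT, the replicate block gave 0 calls in FosBcKO at 6 h, with an FDR of 0.197 for Il6 and 0.174 for Socs3, and Osmr lost its call in Egr1KO at 0 h (FDR 0.135). It changed no other call of the 10 genes. Depth limited Il11 and Osm, which had at most 14 read pairs in a library, and Il6 at 0 h, which had at most 7.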

Other observations

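Markers of other ocular cells also varied among the libraries. The summed level of Tyr, Tyrp1, Dct and Pmel, markers of pigmented cells, was 163.7 to 354.5 CPM in FosBcKO and 94.9 to 311.0 CPM in Egr1KO at 6 h, beside 35.5 to 173.3 CPM in WT. Of these 4 markers, 3 passed the test as higher at 6 h in Egr1KO and 2 in FosBcKO, and none passed in WT. Of all genes tested, 9.28%, 11.2% and 13.5% were higher in these contrasts. No pigment cell marker passed the interaction of genotype and time in either knockout. The summed level of the corneal markers Krt12 and Krt5 spread from 0.518 to 299.0 CPM among the 3 FosBcKO libraries at 6 h and from 2.48 to 189.5 CPM among the WT libraries. The fibroblast markers Col1a1, Col1a2, Pdgfra and Dcn summed to 97.4 to 270.7 CPM in Egr1KO at 6 h and to 187.6 to 262.0 CPM in WT at 0 h. These sums were mostly Pdgfra, with means of 135.9 and 175.2 CPM.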
